A study of Mus musculus and Homo sapiens with 9 samples.

Results

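The comparison set the peaks of an S9.6 CUT&Tag library from HEK293 cells beside those of a mouse IgG library from the same line, which measures where the assay gives peaks when the antibody has no chromatin target. S9.6 gave 15147 peaks and IgG 17178 on the assembled chromosomes of hg38, together 32325 of the 102574 peaks in the 9 lists of the series. A peak was shared when it had at least 1 bp in common with a peak of the other list. This left 14316 S9.6-only peaks, 16349 IgG-only peaks and a shared class of 831 S9.6 and 829 IgG peaks. HEK293 is a human embryonic kidney line, labelled wildtype in both groups, and neither label names a transfection. Each group was 1 library. There was no replicate check, so every interval below is a 95% interval for counting error only, and no p-value is given. The whole series also mapped R-loops in mouse fibroblasts with and without the helicase MCM8 or its partner DDX5. From it, an S9.6 library of HEK293 cells made after a plasmid labelled RNH1 (in the study, RNase H1) had been transfected, and an anti-FLAG library after transfection with FLAG-MCM8 are used below as further readouts.

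An R-loop forms when RNA pairs with its DNA template behind or beside the polymerase and leaves the other DNA strand unpaired. In mammalian cells R-loops are known from the promoters of transcribed genes, where unmethylated CpG islands and an excess of G over C on the nontemplate strand favour them, and from gene ends and repeats. RNase H1 and RNase H2 cut the RNA of the hybrid, and helicases such as AQR and DHX9 unwind it. S9.6 is a monoclonal antibody to RNA-DNA hybrids that can also bind double-stranded RNA. In CUT&Tag a protein A fusion brings the Tn5 transposase to the antibody, and Tn5 also cuts open chromatin without an antibody, which is why an IgG library is made.

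Sequence around the summits gives examples from each class. Each line below gives a stretch of the hg38 plus strand, 5′ to 3′, in lower case with every CpG in capitals. They stand for strong peaks of each class by −log10 p (none of a UTR), with a CpG-rich promoter and an intergenic IgG-only peak added after the values had been seen.
S9.6-only, promoter of ZBTB37 and GAS5, chr1:173868406-173868606: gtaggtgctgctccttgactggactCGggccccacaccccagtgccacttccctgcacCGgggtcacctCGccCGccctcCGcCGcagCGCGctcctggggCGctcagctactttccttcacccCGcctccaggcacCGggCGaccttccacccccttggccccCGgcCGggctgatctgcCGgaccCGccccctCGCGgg
S9.6-only, internal start site of FOXK2, chr17:82586291-82586491: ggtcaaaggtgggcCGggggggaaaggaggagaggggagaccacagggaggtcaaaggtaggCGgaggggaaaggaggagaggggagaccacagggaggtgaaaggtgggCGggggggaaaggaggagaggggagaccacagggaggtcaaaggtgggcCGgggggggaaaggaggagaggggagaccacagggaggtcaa
S9.6-only, MCM8 exons, chr20:5967836-5968036: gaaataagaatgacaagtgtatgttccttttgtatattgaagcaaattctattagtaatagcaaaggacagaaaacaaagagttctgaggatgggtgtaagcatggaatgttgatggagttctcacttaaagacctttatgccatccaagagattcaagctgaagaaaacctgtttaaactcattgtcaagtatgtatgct
Shared, upstream of FARP2, chr2:241355604-241355804: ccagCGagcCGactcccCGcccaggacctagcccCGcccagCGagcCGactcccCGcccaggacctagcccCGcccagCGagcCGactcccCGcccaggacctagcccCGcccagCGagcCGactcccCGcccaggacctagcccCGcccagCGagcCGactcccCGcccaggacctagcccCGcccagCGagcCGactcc
Shared, intergenic, chr16:1025304-1025504: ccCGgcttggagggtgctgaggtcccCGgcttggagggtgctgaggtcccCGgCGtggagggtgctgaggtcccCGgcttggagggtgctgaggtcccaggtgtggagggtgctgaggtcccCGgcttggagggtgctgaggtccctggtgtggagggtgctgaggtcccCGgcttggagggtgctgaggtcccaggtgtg
IgG-only, start site in PLCD3, chr17:45114464-45114664: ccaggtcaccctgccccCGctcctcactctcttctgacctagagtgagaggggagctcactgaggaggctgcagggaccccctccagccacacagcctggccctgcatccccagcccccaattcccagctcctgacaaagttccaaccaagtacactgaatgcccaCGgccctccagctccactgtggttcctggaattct
IgG-only, intergenic, chr17:26743208-26743408: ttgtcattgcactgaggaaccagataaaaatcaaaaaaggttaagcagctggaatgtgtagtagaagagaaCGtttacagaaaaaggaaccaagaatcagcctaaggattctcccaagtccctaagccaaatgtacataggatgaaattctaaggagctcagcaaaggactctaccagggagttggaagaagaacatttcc
The ZBTB37 and GAS5 window held 18 CpGs at 74.1% GC. The FARP2 window held 22 and was an exact tandem repeat, since every base matched the one 37 bp further on. The shared intergenic window repeated likewise, with 96.7% of bases matching at 48 bp, and the FOXK2 window matched at 76.5% at the same spacing. Of all shared S9.6 peaks 10.7% were tandem repeats by the rule given below, so the shared windows printed here do not stand for the class. The IgG-only windows held 2 CpGs (PLCD3) and 1 (intergenic), and their best match at any shift of up to 100 bp was 38.7 and 35.3%. It was similarly low in S9.6-only windows, at 48.5% for ZBTB37 and GAS5 and 37.9% for MCM8. The MCM8 window stood apart from the other S9.6 windows, with 34.8% GC and 0 CpGs.

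Few S9.6 peaks lay where IgG also gave a peak. Of the S9.6 peaks, 831 of 15147 overlapped an IgG peak (5.49%, 5.13 to 5.86%), and 829 of 17178 IgG peaks had an S9.6 counterpart (4.83%, 4.52 to 5.16%). The relative depths recovered from the peaks were close, at 10395 fragments per Mb for S9.6 and 10923 for IgG. They are the lowest recovered background (2.276 in S9.6 and 3.343 in IgG) divided by the length of the shortest peak. Their closeness therefore rests on taking that length as the scale. The lists covered 6.03 and 7.21 Mb. The overlap expected from that coverage alone was not computed, so the shares do not tell whether the lists met more or less often than unrelated lists. The least significant peak of both lists had a −log10 p of 5.00 or 5.02, but the lowest pileup at a summit was 11 fragments in S9.6 and 14 in IgG, and the shortest peaks were 219 and 306 bp. The fold enrichment, the summit's height relative to MACS2's local background, had medians of 4.30 in S9.6-only and 4.15 in IgG-only peaks, with the middle 50% of peaks at 3.81 to 5.01 and 3.73 to 4.65. The classes therefore overlapped widely in height, and height alone did not separate them.

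Most shared peaks were more than edge contacts. Their median overlap was 309 bp, or 68.8% of the S9.6 peak, and 49 of 831 had 50 bp or less in common. Conversely, 388 S9.6-only peaks lay within 1 kb of an IgG peak, 37 of them within 50 bp. Shared S9.6 peaks were wider (median 451 bp) than S9.6-only peaks (337 bp). Within the shared pairs the S9.6 fold was the higher in 566 of 831 (68.1%), and S9.6 folds reached 8 in 53 pairs against 15 for IgG. Folds come from separate libraries and are set side by side only.

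S9.6-only peaks were promoter peaks far more often than IgG-only peaks. With a promoter defined as 1 kb on either side of any transcription start site (TSS) in GENCODE 44, it held the midpoint of 6350 of 14316 S9.6-only peaks (44.4%, 43.5 to 45.2%), 235 of 831 shared S9.6 peaks (28.3%, 25.3 to 31.4%) and 1526 of 16349 IgG-only peaks (9.33%, 8.90 to 9.79%). Promoters held 7.19% of the known bases of the genome. The S9.6-only share exceeded the IgG-only share by 35.0 percentage points (34.1 to 35.9). Introns held 31.1% of S9.6-only, 40.9% of shared and 49.8% of IgG-only peaks, beside 50.3% of bases. Intergenic sequence held 17.7, 24.7 and 35.3%, beside 37.6%. Coding exons away from promoters held 1.68% of S9.6-only and 0.911% of IgG-only peaks, and the UTR shares (0.992 and 0.960%) were not distinguishable, with an interval of the difference from -0.189 to 0.255 percentage points. By place, IgG-only peaks thus stayed close to the genome.

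**Figure D1:**
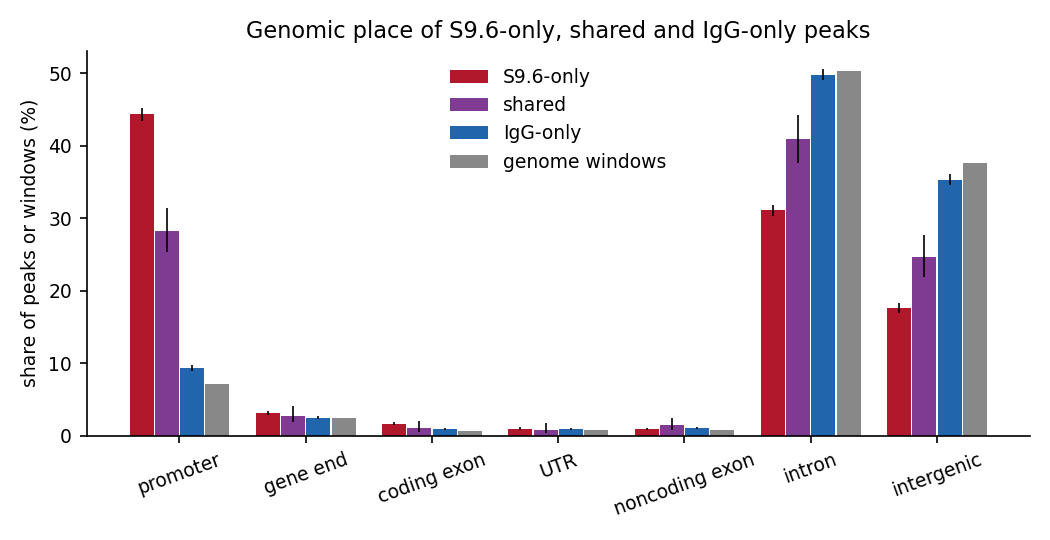
Share of S9.6-only, shared (S9.6 side) and IgG-only peaks, and of genome bases, in each genomic place (x axis), in percent (y axis). The bars of genome bases carry the legend genome windows. Bars start at 0 and error lines are 95% Wilson intervals. The S9.6-only bar is the highest at promoters (44.4%), while the IgG-only bar is close to that of genome bases in introns (49.8 and 50.3%).

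The same order held at protein-coding start sites. Of the S9.6-only summits within 1 kb of such a TSS, 68.4% lay within 250 bp of it, beside 61.9% of shared and 31.8% of IgG-only summits. The median distance was 138 bp for S9.6-only and 439.5 bp for IgG-only summits. S9.6-only summits fell downstream of the TSS in 45.2% (43.9 to 46.5%) and IgG-only summits in 52.9% (49.7 to 56.1%). The S9.6-only summits were thus slightly more often upstream. CUT&Tag marks both sides of a bound site, so the side of a summit does not give the strand of a hybrid.

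**Figure D2:**
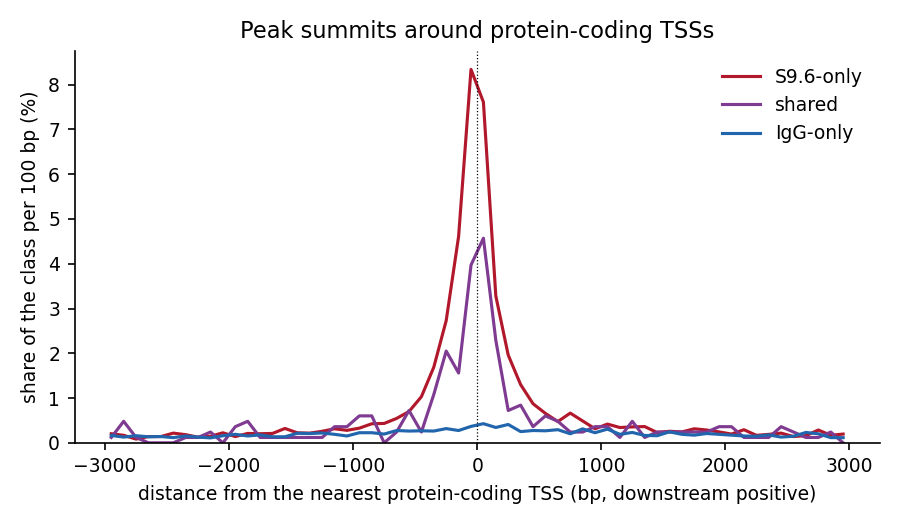
Position of peak summits relative to the nearest protein-coding TSS (x axis, bp, downstream positive) as the share of all peaks of the class in each bin (y axis, percent), for S9.6-only, shared and IgG-only peaks. S9.6-only and shared summits pile up at the TSS, with 68.4 and 61.9% of those within 1 kb lying within 250 bp, and the IgG-only line is nearly flat.

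S9.6-only peaks were also richer in GC, at promoters and elsewhere. Whole-peak GC had a median of 59.2% in S9.6-only peaks (middle 50% of peaks 52.3 to 65.1%). It was 57.4% in shared S9.6 peaks and 45.3% in IgG-only peaks (39.5 to 51.8%). Genome windows, spaced evenly along the genome and as long as the summit windows below, had 39.9%. At promoters the medians were 64.2, 62.9 and 51.4%. In introns they were 54.3, 54.3 and 44.5%, and between genes 55.1, 55.0 and 44.7%. The gap between S9.6-only and IgG-only peaks was therefore present in each of these places. Relative to the genome windows, summit windows (150 bp on either side of the summit) under 35% GC were rare in S9.6-only peaks (0.0335 times their share of the genome) and those of 70% or more were enriched (29.4 times). IgG-only windows went from 0.408 times under 35% to a highest value of 2.94 times at 60 to 65%. How Tn5, amplification and sequencing treat GC was not measured apart from the antibody. Both libraries used the same kit.

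**Figure D3:**
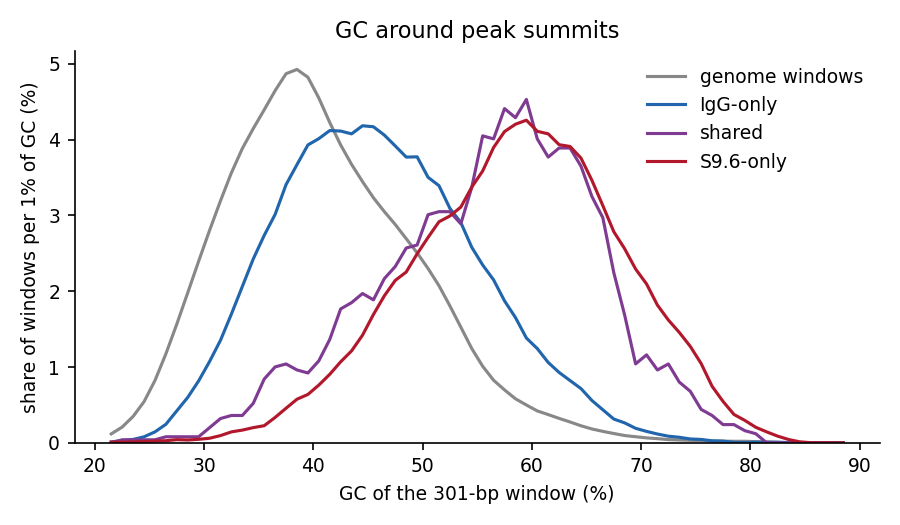
Distribution of GC in the window around the summit (x axis, percent) as the share of windows in each bin (y axis, percent, smoothed over neighbouring bins) for S9.6-only, shared and IgG-only peaks and evenly spaced genome windows. S9.6-only and shared peaks overlie each other near 60%, and IgG-only peaks lie between them and the genome.

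At equal GC the classes still differed in place. Among summit windows of 60 to 65% GC, 52.2% of 2871 S9.6-only and 26.5% of 774 IgG-only peaks were at promoters, a difference of 25.7 percentage points (22.0 to 29.2). At 70% GC or more the shares were 88.7 and 52.0%, and under 35% they were 5.43 and 4.69% and not distinguishable (difference -2.24 to 6.16). CpG-rich windows (at least 50% GC and an observed over expected CpG ratio of at least 0.6, the pattern of a CpG island) made up 30.8% of S9.6-only, 22.4% of shared and 1.95% of IgG-only peaks, beside 1.51% of the genome. Even among promoter peaks, the shares were 62.9, 55.7 and 9.11%. The IgG-only promoter peaks were thus mostly not CpG-island peaks.

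G-quadruplex motifs were more frequent in S9.6-only peaks over all windows, while at equal GC the difference was small and its sign varied. The motif, 4 runs of at least 3 Gs with loops of at most 7 bases on either strand, was in 19.3% of S9.6-only, 14.0% of shared and 4.94% of IgG-only summit windows and in 3.19% of genome windows. Within 60 to 65% GC it was in 22.3% of S9.6-only and 22.6% of IgG-only windows, an interval of the difference of -3.70 to 2.93 percentage points. At 55 to 60% GC the shares were 12.2 and 9.58% (difference 0.647 to 4.45), and at 40 to 45% GC the order turned, with 1.32 and 2.63% (difference -2.15 to -0.105). The motif is a match of letters and does not show a folded quadruplex. Runs of at least 12 A or T were the reverse, in 1.17% of S9.6-only, 3.91% of IgG-only and 6.54% of genome windows.

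Tandem repeats were more frequent in shared peaks than in the other classes, though most shared peaks had none. A window counted as a tandem repeat when at least 80% of its bases matched the base a fixed distance of up to 100 bp away. This held for 89 of 831 shared S9.6 peaks (10.7%, 8.79 to 13.0%), 171 of 14316 S9.6-only peaks (1.19%), 61 of 16349 IgG-only peaks (0.373%) and 0.128% of genome windows. The difference between shared and S9.6-only peaks was 9.52 percentage points (7.58 to 11.8). Among the strongest 20 shared peaks 10 were such repeats. Shared peaks lay within 5 Mb of a chromosome end in 27.3% (24.4 to 30.4%), S9.6-only peaks in 18.4% and IgG-only peaks in 9.30%, beside 7.07% of genome windows. Of the shared peaks with a repeat 56.2% lay there, and of those without 23.9%. Repeat peaks of the other classes lay there often too, in 69.6% of S9.6-only and 41.0% of IgG-only ones. Among promoter peaks the classes were close, at 14.0% of shared S9.6, 14.9% of S9.6-only and 14.3% of IgG-only peaks.

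The strongest shared peak was an intergenic repeat, chr16:1025245-1025669, with a fold of 22.0 in S9.6 and 15.0 in IgG. It also had folds of 22.1 in the list labelled RNH1 and 21.6 in the FLAG-MCM8 list, so it was present in each of the 4 HEK293 lists. The second lay in an intron of SERINC2, a serine incorporator family gene (chr1:31431753-31432184), with folds of 18.1, 13.9, 19.5 and 18.6 in the same order. The third lay on the short arm of chromosome 21 (chr21:8806992-8807635), with 9.92, 6.52, 9.18 and 8.16. Each was lower in IgG than in the libraries with a specific antibody, but above the median fold of its list in both. These peaks were picked by their S9.6 −log10 p, which favours a higher fold in S9.6 than in IgG. The list labelled RNH1 held 20 of the strongest 20 shared peaks.

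The strongest shared peak at a protein-coding promoter lay 0.638 kb upstream of FARP2, a guanine nucleotide exchange factor (chr2:241355042-241356252), with a fold of 10.3 in S9.6 and 4.75 in IgG. MICAL3, an actin-oxidizing monooxygenase, had 11.2 and 7.76 over a repeat without a CpG, and CPNE7, a copine, had 8.52 and 7.92. CpG-rich start sites were among them too. TMEM18 had 8.09 in S9.6 and 5.61 in IgG, ZNF131 10.1 and 4.76, MYO9A, an unconventional myosin, 8.35 and 4.78, SLC19A2, a thiamine transporter, 10.8 and 5.76, and DKKL1 8.76 and 5.35. TOMM40, the channel of the mitochondrial import complex, had 7.74 and 3.89, and RBM15, part of the m6A methyltransferase complex, had 7.03 and 4.83. In all 10 the S9.6 fold was the higher, but they were ranked by S9.6 −log10 p, which favours a high S9.6 fold. Over all 831 shared pairs the S9.6 fold was the higher in 68.1%.

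Strength sorted the S9.6 list by place and the IgG list hardly at all. With each list split into 10 equal bins by −log10 p, the promoter share was 24.8% in the weakest and 77.4% in the strongest bin of S9.6, and 9.49 and 12.2% in those of IgG. Median GC went from 54.5 to 64.2% in S9.6 and from 44.8 to 46.8% in IgG. The share with a peak in the other list went from 2.31% (1.67 to 3.20%) to 14.1% (12.5 to 16.0%) in S9.6 and from 1.92% (1.37 to 2.69%) to 15.0% (13.4 to 16.7%) in IgG. The strongest peaks of both lists were thus shared most often. Of the strongest 1000 S9.6-only peaks 85.4% were at promoters, and of the strongest 1000 IgG-only peaks 10.8%.

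**Figure D4:**
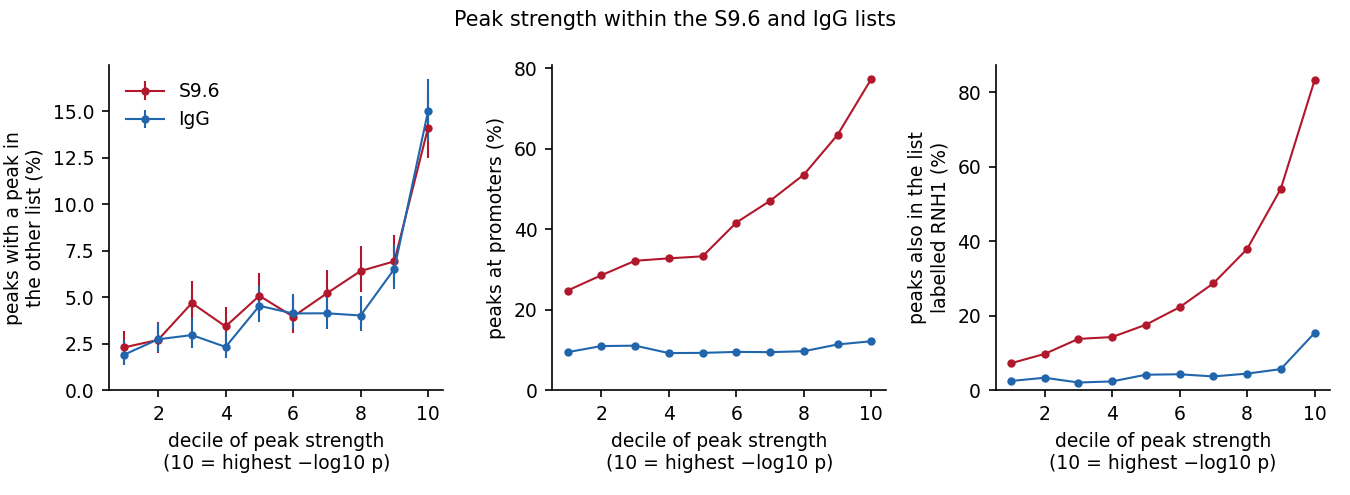
Peaks of each list split into 10 equal bins by −log10 p (x axis, 10 the strongest), with the share that has a peak in the other list (left, error lines 95% Wilson intervals), the share at promoters (middle) and the share also in the list labelled RNH1 (right), all in percent. The promoter share runs from 24.8 to 77.4% in S9.6 and stays between 9.26 and 12.2% in IgG, while both lists share most in the strongest bin.

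Peaks in the other HEK293 lists separated the classes further. The list labelled RNH1 overlapped 27.3% of S9.6-only peaks (26.6 to 28.0%), 56.9% of shared S9.6 peaks (53.5 to 60.2%) and 2.27% of IgG-only peaks (2.05 to 2.51%). Shared exceeded S9.6-only peaks by 29.6 percentage points (26.2 to 33.0). At promoters the shares were 43.3% of S9.6-only and 65.5% of shared peaks, and elsewhere 14.5 and 53.5%. The FLAG-MCM8 list overlapped 10.2% of S9.6-only, 38.4% of shared and 359 of 16349 IgG-only peaks. Strength moved with these shares. In the strongest bin of S9.6 peaks the list labelled RNH1 held 81.6% of S9.6-only and 93.0% of shared peaks, and in the weakest 7.23 and 8.57% (3 of 35 shared peaks). In the bins between them the shared peaks were also ahead, with 31.7 against 9.16% in bin 2, 40.3 against 16.3% in bin 5 and 73.3 against 52.7% in bin 9. Whether RNase H1 was expressed in that library cannot be read from a peak list.

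At protein-coding genes the S9.6-only class was broad. Of 20033 genes, 5861 (29.3%) had an S9.6-only promoter peak, 919 (4.59%) an IgG-only one and 212 (1.06%) a shared one. A CpG-rich promoter carried an S9.6-only peak in 5171 of 13521 genes (38.2%, 37.4 to 39.1%) and a CpG-poor one in 690 of 6512 (10.6%, 9.87 to 11.4%). For IgG-only peaks the shares were 4.90% (4.55 to 5.28%) and 3.93% (3.49 to 4.43%). CpG content thus divided S9.6-only promoters much more than IgG-only promoters. Expression was not measured here, so transcribed and silent promoters could not be compared.

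The 10 strongest S9.6-only peaks at protein-coding promoters, by −log10 p, had CpG-rich summit windows in all but FOXK2. FOXK2, a forkhead transcription factor, led with chr17:82586275-82586532, at a fold of 13.8 (16.7 in the list labelled RNH1 and 13.4 in FLAG-MCM8). This peak lay 0.274 kb from a start site inside the gene, over the repeat printed above, and the gene's own first start had a weaker S9.6 peak (fold 4.21). KPNB1, importin beta of nuclear import, followed with chr17:47649268-47650043 and folds of 11.2, 10.1 and 8.75 in the same order. EEF2KMT, which methylates elongation factor eEF2, had 8.96, 9.02 and 6.14, and NUP98, a nuclear pore protein, had 10.7, 8.40 and 7.21. IgG had no peak at any of these 4 places.

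GAS5, a noncoding host gene of small nucleolar RNAs, and its neighbour ZBTB37 shared an S9.6-only peak (chr1:173867870-173868754) with a fold of 9.65, and 7.63 in the list labelled RNH1. NDUFA11, a subunit of respiratory complex I, had 8.78 and 7.53, and INPP5A, an inositol phosphate phosphatase, 8.35 and 5.93. The membrane protein genes TMEM87B (9.04), TMEM52 (7.76) and TMEM141 (6.55) completed the 10. Each of these 10 S9.6-only peaks was also in the list labelled RNH1, with a fold between 4.30 and 16.7, and 8 were in the FLAG-MCM8 list.

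Away from promoters, the strongest S9.6-only peak of all lay on coding exons of MCM8 (chr20:5967426-5968037), the helicase studied in the series, with a fold of 19.7 and a −log10 p of 1017. Its ends lay 10 and 12 bp from coding exon edges, and it had 35.1% GC, far under the median of its class. The same start and end had a fold of 17.7 in the list labelled RNH1 and 21.6 in FLAG-MCM8, whose cells had received an MCM8 construct, and IgG had no peak. Of 2892 S9.6 peaks over coding exons, 38 (1.31%) had both ends within 20 bp of coding exon edges, and the next strongest of them had a −log10 p of 24.6. DNA of a construct has such edges. Its part in the S9.6 library was not tested.

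The next strongest S9.6-only peaks were repeats. An intergenic tandem repeat, chr1:236097117-236097396, 32.1 kb from the start of NID1, had a fold of 18.9 in S9.6, 18.3 in the list labelled RNH1 and 15.3 in FLAG-MCM8. Another at the end of CCDC183 (chr9:136802829-136803262) had 8.07, 7.69 and 8.46. Among introns, RAB11FIP3, an effector of the recycling GTPase RAB11, had a repeat peak of fold 10.7 (chr16:494773-495045), and RASA4CP, a pseudogene, a peak of 8.61. Between genes, chr20:49617462-49617746, 49.5 kb from PTGIS, had 10.7 in S9.6, 10.8 in the list labelled RNH1 and 10.7 in FLAG-MCM8. In the strongest 100 S9.6-only peaks 4 were tandem repeats and 82 were at promoters.

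The strongest IgG-only peaks lay at 2 genes of chromosome 17. A peak at the 3′ end of GH1, the growth hormone gene (chr17:63916679-63917311), had a fold of 18.1 and a −log10 p of 8200.3 in IgG. S9.6 and FLAG-MCM8 had none there, and the list labelled RNH1 had one with a fold of 16.1. The peak covered part of the last exon of GH1 and sequence beyond it, a stretch used as a poly(A) signal in many expression plasmids. Coding exons of DDX5, the RNA helicase partner of MCM8, had IgG peaks at chr17:64499913-64500779 (fold 12.3, −log10 p 1835) and chr17:64502966-64503570 (fold 2.73, −log10 p 96.8). The ends of the former lay 13 and 6 bp from coding exon edges, and no other HEK293 list had a peak at either place. S9.6 had 2 DDX5 peaks at the gene's start, of which the stronger had a fold of 6.82, and another beyond its 3′ end (4.54). The label of the IgG library names no plasmid, and the part of construct DNA in these peaks was not tested.

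The other leading IgG-only peaks at protein-coding promoters were much weaker, with a −log10 p of 22.6 at most. PLCD3, a phospholipase C, had a fold of 5.98 in IgG beside MIR6784, and SREBF2, a sterol-responsive transcription factor, 7.14. DTNB, a dystrobrevin, had 7.60, FBN3, a fibrillin, 6.34 and PMEL, a melanosome protein, 5.17. FASTKD5, a mitochondrial RNA-processing factor, had 6.18, ATP6V1G1, a subunit of the vacuolar proton pump, 6.81, SLC47A2, an organic cation exporter, 6.54 and GNLY, an antimicrobial protein of cytotoxic lymphocytes, 6.80. Of these 9, SREBF2 (3.58) and PMEL (3.85) were also in the list labelled RNH1. The 9 genes differ widely in function, and their expression in HEK293 cells was not measured.

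IgG-only introns were led by ADGRA1 (chr10:133111481-133111914, fold 7.13), MGMT, a DNA repair methyltransferase (7.88), and MYT1, a neural zinc finger factor (6.12). Between genes, the strongest lay at chr17:26742810-26743653, 551 kb from WSB1, with folds of 7.95 in IgG, 8.58 in the list labelled RNH1 and 5.45 in FLAG-MCM8. Those at chrX:84729871-84730351 (8.41) and chr4:115308539-115308904 (8.24) were in IgG alone of the 4 lists. Of the strongest 100 IgG-only peaks, 16 were in the list labelled RNH1, against 99 of the strongest 100 S9.6-only peaks.

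IgG-only peaks outnumbered S9.6-only peaks in the longest genes, and the reverse held in short genes. S9.6-only peaks in gene bodies numbered 34.7 per Mb in genes under 10 kb and 1.48 per Mb in genes of 500 kb or more, while IgG-only peaks numbered 8.86 and 4.80 per Mb. Bodies ran from the start to the end of a gene, so promoter peaks inside the gene were counted. Promoters held 44.4% of S9.6-only and 9.33% of IgG-only peaks, and densities without promoter peaks were not computed. An S9.6-only peak was anywhere in the body of 34.4% of genes, an IgG-only peak of 24.0% and a shared peak of 2.28%. In the 323 genes of 500 kb or more the shares were 48.6% for S9.6-only and 88.5% for IgG-only peaks. The 12 long genes listed for common fragile sites, where replication stress breaks chromosomes, had 75 IgG-only, 11 S9.6-only and 1 shared peaks. Their median length was 1442 kb. These counts, and those of single genes below, were not scaled to length, so they do not set fragile sites apart from other long genes. DLG2, a synaptic scaffold gene, had 25 IgG-only and 2 S9.6-only peaks, and CTNNA3, a catenin gene, 9 and 0. WWOX (5 and 3) and FHIT (3 and 2) were more even.

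Gene lists showed where promoter peaks fell by function. Of 8 loci often assayed for R-loops, 5 had an S9.6-only promoter peak (62.5%, 30.6 to 86.3%) beside 29.3% of all genes. An IgG-only promoter peak was at 0 of them (0 to 32.4%) beside 4.59%. Of the 8 promoters 6 were CpG-rich, and the S9.6-only interval holds the share of all CpG-rich promoters (38.2%). The 8 loci were also chosen with earlier results of these data known, so they do not show an excess beyond CpG content. ACTB, cytoskeletal actin, had a fold of 4.21, CALM3, a calmodulin gene, 5.48, TFPT 4.85, BTBD19 3.40 and FMR1, the fragile X gene, 5.19, and RPL13A, APOE and ING3 had none. Of 24 factors that limit R-loops, 10 (41.7%, 24.5 to 61.2%) had an S9.6-only promoter peak, an interval that holds the 29.3% of all genes. Among them were DDX5 (6.82), the helicase AQR (6.71), topoisomerase TOP1 (5.90), DHX9 (5.58), RNASEH1 (5.30), THOC1 of the mRNA export complex (4.88), BLM (4.41), BRCA2 (4.13) and BRCA1 (3.77). TOP1 also had an IgG-only promoter peak of fold 3.95 beside its S9.6-only peak, and DDX5 the internal IgG-only peak given above.

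Of 13 immediate-early genes, transcription factors and others induced within minutes of a stimulus, 6 had an S9.6-only promoter peak (46.2%, 23.2 to 70.9%) and 0 an IgG-only one (0 to 22.8%), and both intervals hold the shares of all genes (29.3 and 4.59%). EGR1 had a fold of 5.63, JUN 5.24, FOSB 4.29, JUND 3.98, IER2 3.69 and NR4A1 3.39, and FOS, JUNB and ATF3 had none. Of 77 cytosolic ribosomal protein genes, 26 (33.8%, 24.2 to 44.9%) had an S9.6-only peak, and 97.4% of their promoters were CpG-rich. The interval holds both the share of all genes (29.3%) and that of CpG-rich promoters (38.2%). RPL9 led with 6.45, and RPLP0 (6.42), RPS3A (6.25) and RPL21 (6.17) followed. Zinc finger genes named ZNF had one in 141 of 515 (27.4%, 23.7 to 31.4%), led by ZNF790 (10.8). Olfactory receptors, whose promoters were mostly CpG-poor, had an S9.6-only promoter peak in 1 of 416 (0.240%, 0.0424 to 1.35%) and an IgG-only one in 4 (0.962%, 0.375 to 2.45%). Of all CpG-poor promoters, 10.6% had an S9.6-only and 3.93% an IgG-only peak.

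By chromosome, the density of S9.6-only peaks tracked that of genes more closely than the density of IgG-only peaks did. Over 23 chromosomes, the autosomes and X, the density of S9.6-only peaks had a correlation of 0.888 with that of protein-coding genes, IgG-only peaks 0.510 and shared peaks 0.529, as descriptions over chromosomes of 2 libraries. Chromosome 19, the most gene-rich, had 698 S9.6-only and 416 IgG-only peaks. Chromosome X had 389 and 959, the lowest ratio of the 23 (0.406). S9.6-only peaks were also the more clustered. The densest 1 Mb held 67 of them (chr9:136000001-137000000) and 24 IgG-only peaks (chr12:60000001-61000000), and 99 stretches of 1 Mb held at least 20 S9.6-only peaks against 5 for IgG-only peaks.

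**Figure D5:**
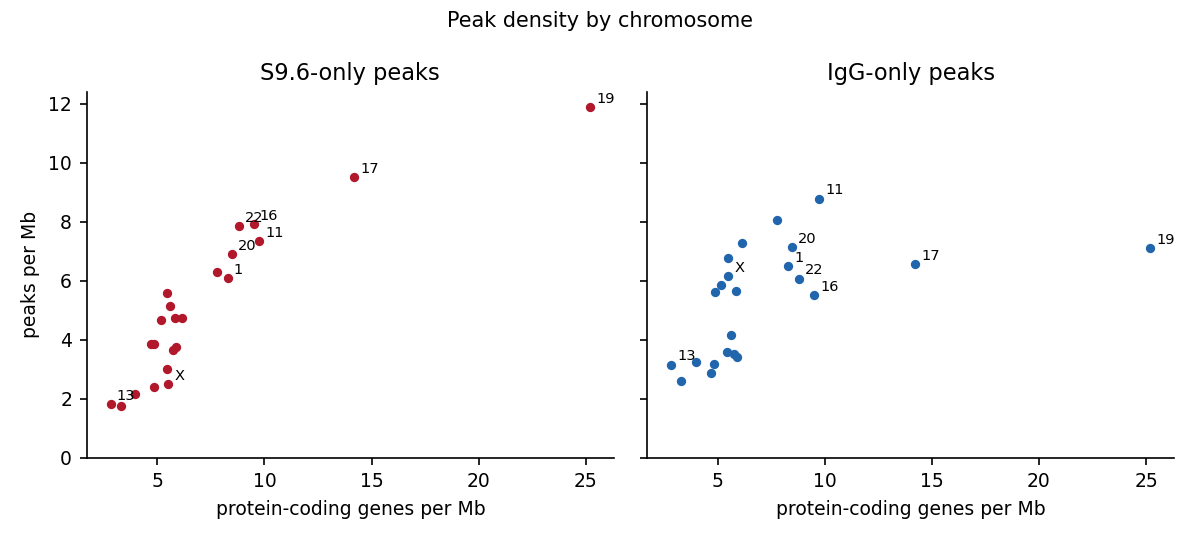
Peaks per Mb (y axis) against protein-coding genes per Mb (x axis) for each autosome and X, 1 point a chromosome with some labelled, for S9.6-only peaks (left) and IgG-only peaks (right). S9.6-only density climbs to 11.9 on chromosome 19, and IgG-only density is highest on chromosome 11 at 8.79.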

How the data were processed

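CUT&Tag was done in HEK293 cells with S9.6 and with mouse IgG, 1 library each. Per the labels and methods, the authors trimmed reads, aligned them to hg38 with bowtie2 (version 2.2.4 in the methods) and called peaks with MACS2, 1 list per library; the methods give version 2.2.7.1 and the submitters' processing notes 2.1.2. Whether IgG served as input is not given in the sources used here. For each peak the authors deposited a fold enrichment (a ratio) over local background, the −log10 of its p and q, a score that was not used, and a summit. Peak numbers skip 1790 (S9.6) and 2090 (IgG) peaks, 53.1 and 62.9% of them in runs of at least 30, so the lists had been filtered, by an unknown rule.

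Fold and p together fix the pileup and the background at a summit. Depth was the lowest such background divided by the length of the shortest peak, and is relative. The overlap, interval and pileup steps were tested on simulated data. Places came from GENCODE 44 by the peak midpoint, in the order promoter, gene end (within 1 kb), coding exon, UTR, noncoding exon, intron, intergenic. Sequence came from hg38, and 293741 evenly spaced windows served as the genome, except that its shares by place were of all known bases. Intervals were Wilson's, and Newcombe's for differences.

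Loci were named by rule: the 10 strongest protein-coding promoter peaks of each class by −log10 p, the 3 strongest peaks of each class, the 3 strongest intronic and intergenic peaks of S9.6-only and IgG-only, peaks bounded by coding exons, and 7 gene lists. Members and lists were chosen with earlier results of these data known. Python 3.11.15, numpy 2.4.6, pandas 2.3.3, matplotlib 3.10.9 and scipy 1.17.1 were used. Alternatives covered q, fold, equal list lengths, overlap, merging, promoter definition and the GC window. Some members of the gene lists and some sequences are not reported here.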

Additional observations from a re-analysis of the deposited data

Results flagged for a closer look

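Mitochondrial peaks were left out of the comparison and were more numerous in S9.6 than in IgG. S9.6 had 9 peaks there and IgG 6, but the covered length was the reverse, at 8473 bp in S9.6 and 11373 bp in IgG. The highest fold was 4.08 in S9.6 and 3.35 in IgG. With 1 library in each group, the difference was not tested.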

How the results depend on the processing

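No result reversed under any alternative: of 50 recomputed values for 7 results, 33 stayed within the interval or within 1.5 times the count, and 17 moved. The share of S9.6 peaks with an IgG peak moved to 4.22% at a fold of at least 4, 3.02% where 50% of each peak had to overlap and 8.05% with peaks within 1 kb counted as shared. The share of IgG peaks with an S9.6 peak moved to 4.14, 2.67 and 6.88% under the same settings and to 5.23% with the 15147 strongest peaks of each list. The promoter difference moved to 45.6 points when q was 1e-05 or lower, 39.7 at a fold of at least 4 and 32.8 with TSSs of protein-coding genes alone. The GC difference moved to 15.4 and 14.3 points at that q and fold and to 13.3 with the window around the summit in place of the whole peak. Genes with an IgG-only promoter peak moved to 548 at that q, 507 at that fold and 1999 within 3 kb of a TSS. The difference in overlap with the list labelled RNH1 moved to 21.4 percentage points with peaks within 1 kb counted as shared. Fewer peaks pass the stricter q and fold, and a wider promoter or shared distance takes in more; the causes of the other moves were not tested. Pileups under 11 (S9.6) or 14 (IgG) fragments gave no peak, so a weak IgG signal under an S9.6-only peak could not be seen. No paired analysis was possible because each group is 1 library and the labels carry no replicate numbers.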

Other observations

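At the median, start sites of every gene class had more G than C downstream, most of all with a shared peak. The median GC skew, (G − C)/(G + C) on the coding strand downstream of the TSS, was 0.0681 (middle 50% of genes -0.0114 to 0.146) in genes with an S9.6-only promoter peak and no other class, 0.0542 with an IgG-only peak alone and 0.0459 with no peak. Among CpG-rich promoters the medians were 0.0693, 0.0506 and 0.0498. Over all promoters the median was 0.0866 in genes with a shared peak and 0.0636 in those with S9.6-only and IgG-only peaks. The spreads of the genes overlap widely, and no test was made.

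IgG-only promoter peaks lay nearest a processed pseudogene in 8.91% (7.58 to 10.4%) and S9.6-only promoter peaks in 1.18% (0.943 to 1.48%). Protein-coding genes were nearest in 58.5 and 79.3%, and long noncoding RNAs in 305 of 1526 and 991 of 6350 peaks. The share of each gene type among all annotated TSSs was not computed, so these values do not show which class departed from it. Summit sequences of 51 bases found again in another peak made up 1.01% of S9.6-only, 0.887% of IgG-only and 2.65% of shared peaks.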
